A study of Mus musculus with 6 samples.

Results

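The luminal epithelium is the sheet of cells that lines the uterus and meets the embryo first. Its baseline transcript profile at 3.5 days post coitum was described from the 3 Control arrays (A, B and C) of a series of 6 arrays on mouse uterine epithelium. A probe was taken as above background where its detection p-value was under 0.05 on all 3 arrays, and a gene was represented by its brightest such probe. By this rule 14947 of 45281 probes and 10412 of 28891 genes (36%) entered the ranking, ordered by mean normalised log2 signal. A further 2790 genes were above background on 1 or 2 arrays, and 15689 (54.3%) were below background on every Control array. Without names of clones and predicted genes, 8896 of 19180 genes (46.4%) were above background on all 3 arrays and 8306 (43.3%) on none.

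The series was built to compare Control mice with mice lacking the BMP receptor Alk3 in cells that express the progesterone receptor, and only the Control arrays are described here. The labels give the Control genotype only as Control, so it is not known whether these mice carried the floxed Alk3 allele or the Pgr-cre allele. The mice were hybrids of the strains C57BL/6J and 129S5/SvEvBrd, and their age is not stated. Uterine tissue was frozen, and total RNA was purified from homogenised tissue on an RNeasy column. The tissue label names isolated luminal epithelium, but the labels do not describe how the epithelium was separated. The labels do not tie arrays to animals, so the spread over arrays may be technical in part. All 3 arrays lay on the same bead chip, in positions A to C.

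In early mouse pregnancy, ovarian estrogen first drives the luminal cells to divide, and rising progesterone then stops their division and prepares them for the embryo. A short surge of estrogen makes the uterus receptive for a limited time, during which the surface loses part of its barrier, uterine fluid is withdrawn and the blastocyst attaches. Progesterone acts through the progesterone receptor on epithelial signals such as Indian hedgehog, which pass the message to the stroma below. Bone morphogenetic proteins signal through type I and type II receptors and SMAD proteins, and take part in both attachment and the later response of the stroma.

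Median raw intensity ran from 82.4 to 87.6 over the 3 arrays and the median number of beads behind a probe from 39 to 42. Between 16620 and 17536 probes were above background on each array, and the number of arrays limits the precision. Across the 10412 ranked genes, which are not independent replicates, Pearson's r was 0.977 between A and B, 0.976 between B and C and 0.952 between A and C. Arrays A and C were thus the least alike pair, and 950 genes (9.12%) differed over 2-fold between them, against 408 between A and B and 484 between B and C. Haemoglobin transcripts and interferon-stimulated genes were also highest on A, with the values given below.

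Normalised signals of ranked genes ran from 14.98 to 5.15 on the log2 scale, with a median of 8.43. The 10% of genes with the highest ranks (1041 genes, 11.55 and above) are called high here, the 10% with the lowest ranks (1041 genes, 5.84 and below) low, and the other 8330 genes middle. Brightness depends on each probe's sequence as well as on the amount of RNA, so the order is one of probe signals and not of transcript numbers. Signal was spread over many genes. The 10 highest genes held 2.16% of the summed linear signal, the 100 highest 17.2% ± 0.09 (SD, n = 3 arrays), and the 1000 highest 60.7% ± 0.15 (SD, n = 3 arrays). Quantile normalisation gives all 3 arrays the same distribution of signals. These SDs are therefore small largely by construction and do not measure how well the samples agree.

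**Figure D1:**
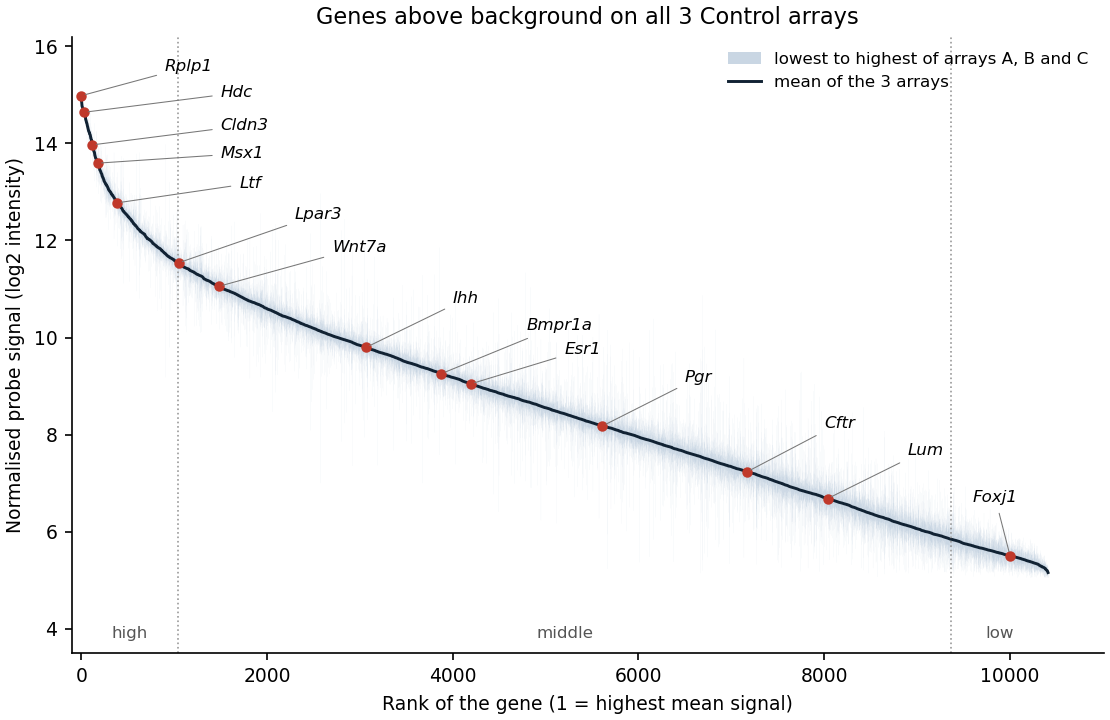
Mean normalised log2 signal of each of the 10412 ranked genes against its rank, with the lowest and highest of the 3 Control arrays as a pale band and selected genes marked. Signals fall from 14.98 at Rplp1 to 5.15 at the last rank, dotted lines bound the high, middle and low genes, and Pgr (8.18) and Esr1 (9.04) lie in the middle range.

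Rplp1, a stalk protein of the ribosome, ranked first with 14.98, 14.98 and 14.98 on arrays A, B and C. Quantile normalisation gives the brightest probe of every array the same value, so this agreement holds by construction, and spread near the top of the ranking is limited by the same step. The translation elongation factor Eef1a1 followed at 14.89 ± 0.07 (SD, n = 3, as for all values with ± below). Mt1, a metallothionein that binds zinc and copper, ranked 3 with 14.92, 14.82 and 14.87. Ubb, a ubiquitin precursor, ranked 5 with 14.79, 14.83 and 14.94, and Ckb, the brain-type creatine kinase that buffers cellular ATP, ranked 6 with 14.87, 14.87 and 14.73. Among these 3 genes the widest span over the arrays was 1.11-fold, at Ubb, and no array was highest for all.

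Several genes with known roles in uterus or secretory epithelium stood beside these housekeeping transcripts. Fxyd4, a regulator of the sodium pump, ranked 12 with 14.68, 14.76 and 14.82, and its other probe averaged 13.96. Hdc, histidine decarboxylase, makes the histamine that has been linked to implantation; it ranked 31 with 14.60, 14.67 and 14.66, and its other probe averaged 14.00. Wfdc2, a secreted whey acidic protein-type inhibitor, ranked 41 with 14.55, 14.66 and 14.56. Array B was highest for Hdc and Wfdc2, within spans of 1.04-fold and 1.08-fold. Acot7, an acyl-CoA thioesterase, ranked 7 with 14.83, 14.80 and 14.77, and all 4 of its probes were above background, the dimmest at 13.98. Myd88, the adaptor of Toll-like and interleukin-1 receptors, ranked 16 with 14.73, 14.77 and 14.71, and its other probe averaged 12.56. The interferon-induced membrane proteins Ifitm1 (14.69 ± 0.07, rank 23) and Ifitm3 (14.42 ± 0.02, rank 59) were both among the 60 highest genes. Wbp2, a WW domain-binding coactivator that has been tied to steroid receptors, ranked 15 with 14.70, 14.81 and 14.70.

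Of the 100 highest genes, 35 carried names of clones or predicted genes and 7 came from the mitochondrial genome, such as mt-Cytb (14.49 ± 0.02). Pseudogene names at high rank, such as Ubb-ps (14.68 ± 0.05), Rpl27-ps1 (14.62 ± 0.02) and Rps7-ps3 (14.46 ± 0.05), share sequence with their parent genes, so their signal cannot be assigned to either. Probes of the same gene often disagreed. Of 3240 genes with several probes above background on all 3 arrays, 64.9% had probes over 2-fold apart and 13.0% over 16-fold apart. The largest gap was at Ybx1, a DNA- and RNA-binding cold shock protein, whose probes averaged 14.42 and 5.56; the brighter was deposited under the older name Nsep1. Gaps of similar size were found at Gstm1 (14.11 and 5.92), Rps24 (14.43 and 6.55) and Slc1a1 (13.06 and 5.23). Of 5581 ranked genes that had several probes, 3004 (53.8%) had another probe that was below background on every array. A gene below background therefore has only a bound here, and a different probe could have placed it elsewhere.

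Promoters of ranked genes were richer in CpG dinucleotides than those of genes below background. CpG-rich promoters are known for broadly used genes and CpG-poor ones for genes restricted to certain tissues. RefSeq windows (GRCm38.p6) of 300 bases, from 250 before to 50 after the start, were available for 22862 genes with a single window. The median ratio of observed to expected CpG was 0.80 for 569 high genes, 0.80 for 4761 middle genes and 0.72 for 500 low genes. It was 0.54 for 1292 genes above background on 1 or 2 arrays and 0.31 for 6130 genes below background on all 3, against 0.37 over all windows. A ratio over 0.6 was found in 80.5% of high genes and 27.8% of genes below background, or 32.2% of the latter without olfactory receptors. These are descriptions of windows and were not tested.

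The last 100 bases before the start are shown for 8 genes, to set CpG-rich against CpG-poor promoters. Eef1a1, Ckb, Hdc and Fxyd4 were steady on the arrays, Msx1 rose from A to C, and Ltf, Slc51a and Guca2b had wider spreads. Of the genes, 6 are in the high range, and Slc51a (10.13) and Guca2b (9.28) are in the middle. CG dinucleotides are in capitals, and each run is read 5′ to 3′ on the gene's own strand.
Eef1a1 (chr9:78481725-78481824, minus strand): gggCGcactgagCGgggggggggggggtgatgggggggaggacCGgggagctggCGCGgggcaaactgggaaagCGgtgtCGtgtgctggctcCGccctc
Ckb (chr12:111672339-111672438, minus strand): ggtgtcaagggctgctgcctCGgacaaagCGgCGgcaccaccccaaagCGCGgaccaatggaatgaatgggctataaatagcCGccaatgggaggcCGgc
Msx1 (chr5:37824586-37824685, minus strand): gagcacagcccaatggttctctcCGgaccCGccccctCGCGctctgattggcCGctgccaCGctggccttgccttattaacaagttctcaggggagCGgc
Hdc (chr2:126618679-126618778, minus strand): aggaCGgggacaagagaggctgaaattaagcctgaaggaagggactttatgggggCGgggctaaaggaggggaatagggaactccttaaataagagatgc
Fxyd4 (chr6:117937336-117937435, minus strand): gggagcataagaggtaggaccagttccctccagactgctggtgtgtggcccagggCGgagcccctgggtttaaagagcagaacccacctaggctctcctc
Ltf (chr9:111019192-111019291, plus strand): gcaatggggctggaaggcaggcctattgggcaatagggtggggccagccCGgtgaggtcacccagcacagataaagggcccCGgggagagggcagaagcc
Slc51a (chr16:32487880-32487979, minus strand): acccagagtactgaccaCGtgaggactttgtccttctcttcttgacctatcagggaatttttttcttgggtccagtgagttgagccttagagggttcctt
Guca2b (chr4:119658946-119659045, minus strand): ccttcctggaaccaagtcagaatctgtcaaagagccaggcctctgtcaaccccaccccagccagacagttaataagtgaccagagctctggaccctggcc
Eef1a1, Ckb and Msx1, a homeobox factor of the receptive epithelium, hold 7 or 8 CG dinucleotides in these bases. Hdc, Fxyd4 and the estrogen-regulated lactoferrin gene Ltf hold 2, 1 and 2, although their signals (14.64, 14.75 and 12.78) lie in the high range as well. Slc51a and Guca2b, among the most variable genes over the arrays, hold 1 and 0. The letters TATAAA stood on the sense strand from 40 to 20 bases before the start in 2.42% of all windows, 3.34% of high genes, 1.11% of middle genes and 4.39% of genes below background. Ckb is an example, with the motif beginning 28 bases before its start.

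**Figure D2:**
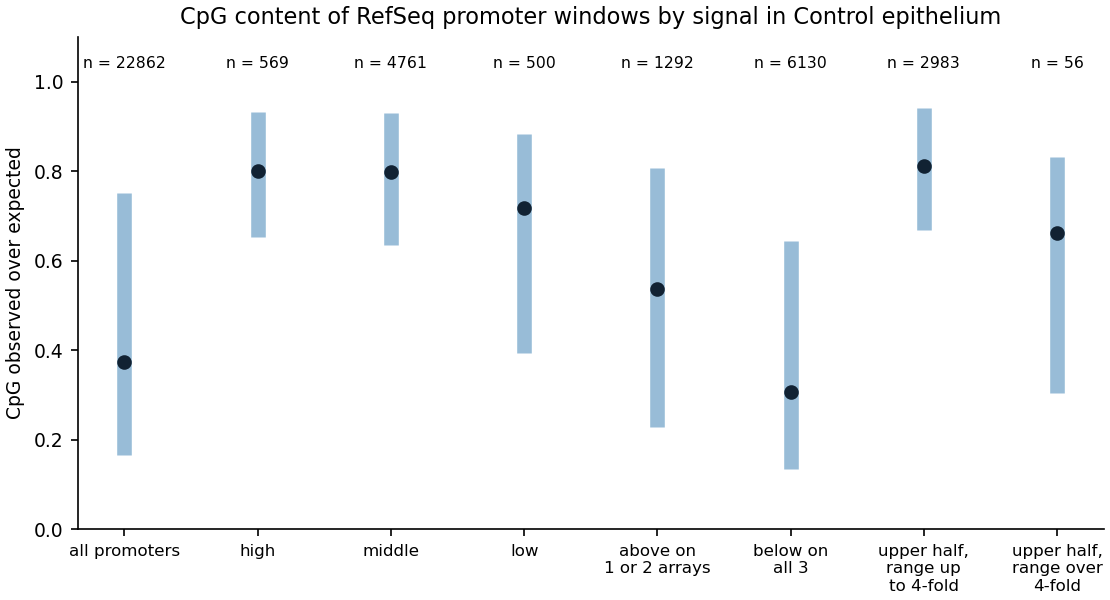
Observed over expected CpG in 300-base RefSeq promoter windows, by class of signal on the Control arrays; points are medians, bars run from the 25th to the 75th percentile, and n is the number of genes. Medians are 0.80 in high genes and 0.31 in genes below background, and 0.66 in genes of higher rank whose arrays spanned over 4-fold, against 0.81 in those that did not.

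Markers of epithelium were detected nearly throughout. Of 20 pan-epithelial markers 19 were above background on all 3 arrays, a share to be read against 46.4% of all named genes, and their median percentile of rank was 87.6. The exception was Epcam, an epithelial adhesion molecule, whose probe was below background on every array. Cldn3, a tight junction protein, gave 14.02, 14.02 and 13.88, and Krt8, a keratin of simple epithelia, gave 13.52, 13.28 and 13.60. Spint1, a membrane-bound protease inhibitor of epithelia, gave 13.28, 12.91 and 12.73. Array A was highest for Spint1, which spanned 1.46-fold, and no array stood apart for Cldn3 or Krt8. E-cadherin (Cdh1, 11.50 ± 0.11), the splicing regulator Esrp1 (11.27 ± 0.22) and the epithelial factors Elf3 (11.34 ± 0.38) and Grhl2 (10.42 ± 0.26) were in the middle range. Cd24a (5.72 ± 0.17) was near the bottom of the ranking.

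Of 20 luminal markers 17 were above background on all arrays, with a median percentile of 72.9. Klf5, a zinc finger factor needed by this epithelium for attachment, gave 12.97, 12.84 and 12.86. Wnt7a, a luminal Wnt ligand, gave 11.60, 11.39 and 10.18, and Lpar3, the lysophosphatidic acid receptor that times implantation, gave 11.60, 11.81 and 11.21. Array C was lowest for Wnt7a and Lpar3, and Klf5 was level. Calb1 and Il13ra2 were below background on every array. Of 14 glandular markers 5 were above background on all arrays, 7 on 1 or 2 arrays and 2 on none (14.3%, beside 43.3% of all named genes). Foxa2, the defining glandular transcription factor, was above background on 1 array (4.96, 5.13 and 4.65), and all 5 probes of Lif, the cytokine that glands release, were below background. The glandular protease genes Prss28 (6.32, 4.71 and 4.56) and Prss29 (8.33, 5.26 and 4.55) were highest on array A. Cxcl15, another glandular product, was highest on array B with 6.99, 9.22 and 7.35. Spink1, a trypsin inhibitor, gave 12.15, 10.40 and 8.09 and thus spanned 16.7-fold, with A highest and C lowest. The part of glandular cells in these values was not tested.

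Of 20 stromal markers 8 were above background on all arrays (40%) and 7 on none (35%), at a median percentile of 24.9. These counts, and those of the cell types below, are to be read against 46.4% and 43.3% of all named genes. The stromal factors Hand2, Hoxa10 and Hoxa11 and the matrix genes Fn1 and Postn were among those below background on every array. Summed linear signal of the whole stromal list was 2996, 2547 and 3571 on A, B and C, and most of it came from Dcn (11.08 ± 0.25), a proteoglycan, while Vim stood at 6.38 ± 0.25. Of 10 smooth muscle markers 4 were above background on all arrays (40%) and 5 on none (50%), with Myh11, Cnn1, Tagln and Actg2 among the latter. Des was ranked at 5.66 ± 0.16. Acta2, smooth muscle actin, gave 11.04, 8.03 and 6.92 and was highest on A, while its other probes averaged 6.37 or less. Of 9 ciliated cell markers 3 were above background on all arrays, with the ciliary factor Foxj1 at 5.50 ± 0.13, and of 5 mesothelial markers 3, with Upk3b at 8.46 ± 0.43. Of 12 endothelial markers 4 were above background on all arrays (33.3%), and Pecam1 was above it on 1. Of 15 macrophage and dendritic markers 8 were above background on all arrays (53.3%) and 5 on none, Adgre1 and Itgam among them, at a median percentile of 31.1. Of 14 lymphocyte markers 4 were above background on all arrays (28.6%) and 8 on none (57.1%). Among the latter were Cd3e and, with all 3 probes, the general leukocyte marker Ptprc. Cd14, a co-receptor for bacterial lipopolysaccharide, was the highest gene of the macrophage list at 12.72, 12.68 and 12.81, in the high range, while the Fc receptor chain Fcer1g stood at 7.51 ± 0.73, Cd68 at 7.17 ± 0.44, and the complement genes C1qa and C1qb at 5.82 ± 0.67 and 7.31 ± 0.52. Prf1, the pore-forming perforin, gave 10.42, 8.92 and 9.48, but Gzmb and Ncr1 were below background. In RNA from many cells, fewer cells of a type and less RNA per cell cannot be told apart.

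Red cell RNA was present and uneven. Hba-a1, alpha globin, gave 12.21, 11.61 and 10.24 and Hbb-bt, beta globin, gave 12.42, 11.67 and 10.25. Both were highest on A and lowest on C, and the summed linear signal of the whole erythroid list was 15257, 9181 and 3583. Alas2, a dim gene of the same list, went the other way (5.83, 6.30 and 6.32), and Slc4a1 and Epb42 were below background. Markers of tissues that should be missing gave a measure of stray signal. No testis marker of 11 was above background on all arrays, against 17 of 1093 olfactory receptors (median percentile 2.63) and 2 of 173 vomeronasal receptors. Other lists gave more: 4 of 12 brain markers (33.3%), 3 of 11 of skeletal and heart muscle (27.3%) and 1 of 12 of liver. The brain markers reached percentile 34.1 and the liver marker stood at 47.3. Apart from these tissues, no neutrophil marker of 9 was above background on all arrays. In these female samples 2 of 8 Y-linked genes were above background, Ddx3y with 1 of 3 probes (6.83 ± 0.22) and Uty with 1 of 4 (5.41 ± 0.15), so a weak signal from a single probe need not show the named transcript. Of 13 genes of the preimplantation embryo, Elf5 (7.29 ± 0.74) and Pou5f1 (5.43 ± 0.14) were above background on all arrays, and Nanog, Cdx2 and Eomes on none.

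**Figure D3:**
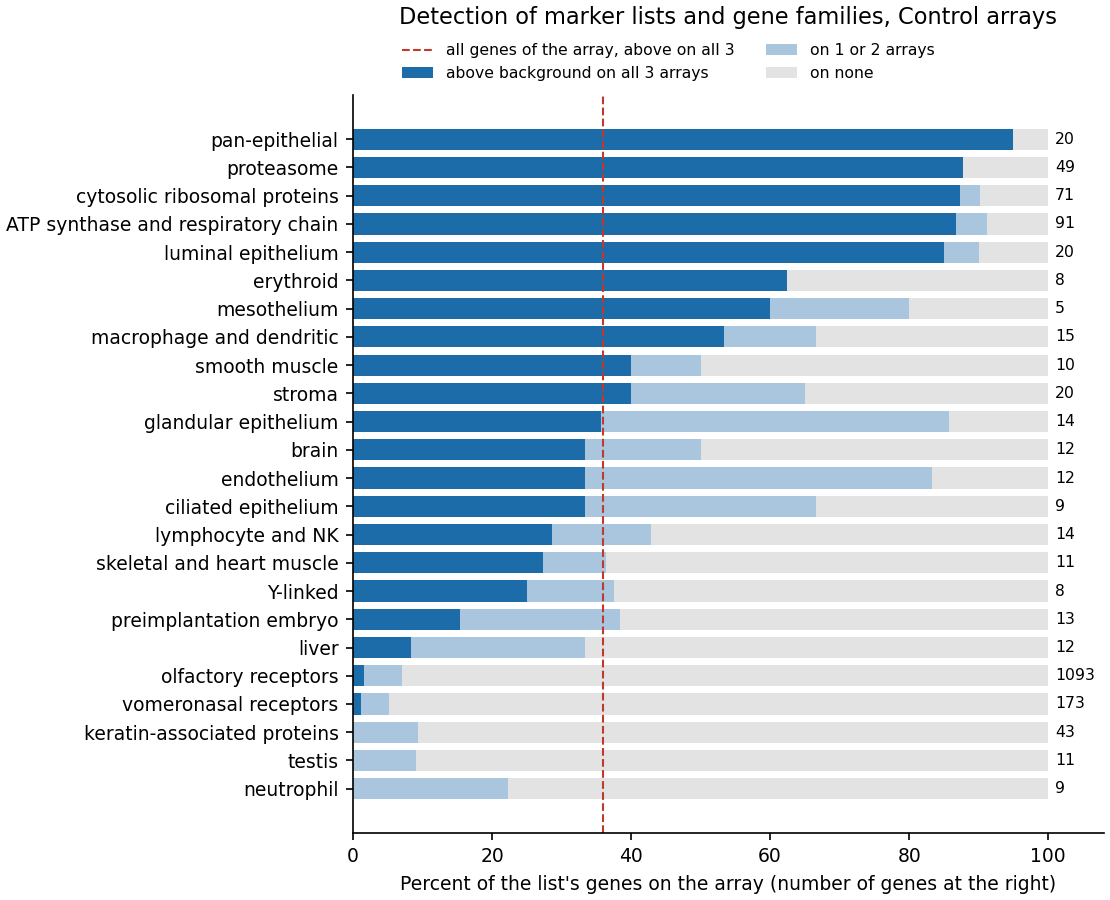
Share of each marker list or gene family above background on all 3, on 1 or 2, or on none of the Control arrays, with the number of genes on the array at the right. Pan-epithelial markers (19 of 20) and the proteasome (43 of 49) lead, and testis and neutrophil markers and keratin-associated proteins have no gene above background on all 3. The dashed line marks 36% of all genes, with clone and predicted names included. Without these names the share was 46.4%, to the right of the line.

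The receptors for ovarian steroids were in the middle range. Esr1, estrogen receptor alpha, gave 8.69, 9.29 and 9.15 and Pgr, the progesterone receptor, gave 7.45, 9.15 and 7.93. Pgr was highest on B, and its range over the arrays was wider than that of Esr1. Estrogen receptor beta (Esr2), the glucocorticoid receptor (Nr3c1), the mineralocorticoid receptor (Nr3c2) and the coactivators Ncoa1 and Ncoa3 were below background on every array. The chaperones of steroid receptors were high. Fkbp4, an immunophilin that progesterone receptor function needs, gave 13.59, 13.37 and 13.28, and Hsp90ab1 gave 13.21, 13.21 and 13.56. In all, 12 of 19 genes of the steroid receptor list were above background on all arrays (63.2%). This count and those of the lists below are to be read against all named genes. Of these, 46.4% were above background on all arrays and 43.3% on none.

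Of 16 genes known to be induced by progesterone 12 were above background on all arrays, with a median percentile of 75.9. Gata2, a zinc finger factor that acts with the progesterone receptor, gave 12.78, 13.45 and 13.94, and Sox17, which acts with Gata2, gave 12.88, 13.14 and 13.04. Lrp2, the endocytic receptor megalin, gave 13.95, 14.04 and 13.75, and Acod1, which makes itaconate, gave 11.82, 12.08 and 12.82. Gata2 and Acod1 were highest on C, and Sox17 and Lrp2 spanned 1.2-fold and 1.22-fold. Ihh, the hedgehog ligand that carries the progesterone signal to the stroma, was moderate at 10.06, 9.41 and 9.92. Areg, amphiregulin, gave 9.30, 10.06 and 11.93 and was highest on C. Cyp26a1, which degrades retinoic acid, gave 12.45, 9.18 and 8.25 and was highest on A, an 18.4-fold span, so its mean of 9.96 is the level of no array. Fst, follistatin, was below background.

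Genes known to be induced by estrogen ranged from the top of the ranking to background. Of 25 such genes 20 were above background on all arrays, with a median percentile of 50.1, and 6 spanned over 4-fold. Ltf, lactoferrin, gave 11.89, 13.41 and 13.02, and Ccn2, a matrix-associated growth factor, gave 13.70, 14.26 and 13.11. C3, complement component 3, gave 12.11, 11.10 and 10.62. Ltf was lowest on A, C3 was highest on A and Ccn2 was highest on B. Sprr2f, a cornified envelope protein, gave 9.59, 12.39 and 10.75 and was highest on B, and Muc1, the mucin that shields the surface, was moderate at 9.73, 10.47 and 9.16. Aqp5 stood at 6.37 ± 0.99, Sprr2b and Clca3a2 were below background, and Krt14 was above it on 2 arrays.

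Of 29 genes of receptivity and implantation 18 were above background on all arrays (62.1%) and 8 on none (27.6%). Lif, Hand2 and Hoxa10 were among the latter. The shares of all named genes were 46.4% and 43.3%. Msx1 gave 13.30, 13.53 and 13.95 and ranked 176, next to Ybx1 among transcription factors, while its relative Msx2 was below background with its only probe. Ctnnb1, beta-catenin, gave 12.23, 12.18 and 12.03, and Stat3, which relays the LIF signal, gave 11.49, 11.16 and 10.21. Stat3 was lowest on C. Sgk1, a kinase that controls epithelial sodium transport, gave 9.19, 12.04 and 13.99, a 27.9-fold span with A lowest and C highest. Of the LIF receptor chains, Il6st was above background at 7.61 ± 0.39 and Lifr on 2 arrays. Hbegf, an attachment factor, was moderate at 8.39 ± 0.31. Ptgs2, the inducible cyclooxygenase, Pla2g4a, Itgb3 and Bmp2 were below background on every array.

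Of 31 growth factors and receptors 15 were above background on all arrays (48.4%, beside 46.4% of all named genes). Fgfr2, the epithelial receptor for fibroblast growth factors, gave 13.34, 13.26 and 13.26, with all 4 probes above background, whereas Fgfr1, Fgfr3 and Fgfr4 were below it. Egfr gave 8.95, 9.31 and 10.17 and Erbb2 gave 9.54, 9.31 and 9.24. Fgfr2 and Erbb2 were level over the arrays and Egfr was highest on C. Erbb3 was near background at 5.18 ± 0.12 and Erbb4 was below background. Among ligands, Fgf1 gave 7.95, 9.25 and 10.88 and was highest on C, while Fgf2, Fgf10, Hgf, Ereg and Tgfa were below background. Of the WNT pathway 15 of 35 genes were above background on all arrays (42.9%, also near the share of all named genes). Besides Wnt7a, the ligands Wnt5a (10.67 ± 0.34), Wnt7b (8.53 ± 1.25) and Wnt11 (8.20 ± 0.24) and the receptors Fzd5 (11.09 ± 0.78) and Fzd6 (10.96 ± 0.34) were above background, and Wnt4, a progesterone target in stroma, was above it on 1 array.

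The BMP pathway, which the series was built around, was represented mainly by its receptors and SMAD proteins. Of 33 genes 19 were above background on all arrays (57.6%, beside 46.4% of all named genes), at a median percentile of 62.4. On no array were 12 above it (36.4%, beside 43.3% of all named genes). Among ligands, Bmp5 was just above background (5.64 ± 0.20), Bmp4 was above it on 2 arrays, and Bmp2, Bmp6, Bmp7 and Bmp8a were below it. Among receptors, Bmpr2, the type II receptor, stood at 10.77 ± 0.21 with a span of 1.32-fold. Only 1 of its 4 probes was above background on all arrays, and the others averaged 5.12 or less. Bmpr1a, the type I receptor also called Alk3, gave 9.33, 9.41 and 9.03, and its other probe averaged 6.97. Acvr1, another type I receptor, gave 9.81, 9.34 and 8.10. Bmpr1a spanned 1.3-fold, and Acvr1 was lowest on C. Bmpr1b gave 6.50, 7.97 and 8.64 and was lowest on A. The activin receptors Acvr2b (9.77 ± 0.05) and Acvr2a (5.37 ± 0.15) were above background as well. Smad1 (10.44 ± 0.26) and Smad5 (9.23 ± 0.68), which carry BMP signals, were moderate; Smad9 was below background, as was the inhibitor Smad7. The antagonists Nog, Grem1, Fst and Bambi were below background, and Chrd stood at 6.62 ± 0.77.

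Id1, Id3 and Id4, Id genes known to respond to BMP, were among the least steady members of the pathway together with Bmpr1b. Id1 gave 7.01, 9.86 and 11.30, Id3 gave 5.53, 6.92 and 8.60 and Id4 gave 5.42, 6.25 and 7.24. In these 3 genes A was lowest and C highest, with spans of 19.5-fold for Id1, 8.4-fold for Id3 and 3.53-fold for Id4. Id2, at 9.91, 9.91 and 10.28, spanned 1.3-fold.

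Of 40 genes of junctions and polarity 30 were above background on all arrays, 7 of them high. Besides Cldn3, the claudins Cldn4 (12.70 ± 0.32), Cldn23 (12.46 ± 0.25) and Cldn10 (12.22 ± 1.52) were high. Cldn10 gave 13.82, 12.02 and 10.81, with A highest, and Cldn1 gave 7.01, 7.54 and 9.86, with C highest. Ctnna1, alpha-catenin, gave 12.72, 12.99 and 13.03, and Llgl2, a basolateral polarity protein, gave 12.21, 12.33 and 12.18. They spanned 1.24-fold and 1.11-fold. Occludin (Ocln, 8.17 ± 0.34) and Tjp1 (7.74 ± 0.41) were moderate, and Jup and Dsc2 were below background. Of simple keratins, Krt18 (12.17 ± 0.28), Krt19 (11.26 ± 0.66) and Krt7 (10.23 ± 0.31) accompanied Krt8 and Krt20 was below background; of 13 keratins of stratified epithelia, 8 were below background, among them Krt1, Krt5 and Krt13. Of 14 mucins and sialomucins only Muc1, Muc16 (5.66 ± 0.34), Podxl (9.04 ± 0.67) and Cd164 (11.80 ± 0.23) were above background on all arrays, and Muc2, Muc5ac, Muc6 and Muc20 were below it. Of 19 genes of microvilli and the apical cytoskeleton 12 were above background on all arrays (63.2%) and 5 on none (26.3%). The shares of all named genes were 46.4% and 43.3%. Eps8l2 (8.69 ± 0.58) and Cdhr5 (6.11 ± 0.49) were detected, villin (Vil1), Myo1a and Cdhr2 were below background, and the general actin regulators Tmsb4x (14.05 ± 0.05) and Pfn1 (12.57 ± 0.14) were high.

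Genes that move water and ions had the highest median percentile of the 29 function lists, 90.9, from 17 genes above background of 29. Atp1b1, a subunit of the sodium pump, gave 13.46, 13.98 and 14.24. It was lowest on A. Slc12a2, the sodium-potassium-chloride cotransporter, gave 12.82, 12.27 and 12.64, Kcnk1, a potassium channel, gave 12.87, 12.79 and 12.56, and Fxyd3, a pump regulator, gave 13.65, 12.75 and 12.22. Array A was highest for each of these 3 genes. Of the epithelial sodium channel, Scnn1a was moderate at 7.82 ± 0.09, and Scnn1b and Scnn1g were below background on every array. The chloride channel Cftr stood at 7.23 ± 0.31. Of the aquaporins, Aqp11 stood at 11.72 ± 0.39, Aqp4 gave 4.68, 7.23 and 8.49 and was above background on 2 arrays, and Aqp9 was below it. Car12, a membrane carbonic anhydrase, gave 12.26, 10.92 and 8.48 and spanned 13.8-fold, with A highest. Among all 384 solute carriers 157 were above background on all arrays (40.9%, beside 46.4% of all named genes). The zinc importer Slc39a4 (14.30 ± 0.28) and the taurine transporter Slc6a6 (13.24 ± 0.35) led them.

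**Figure D4:**
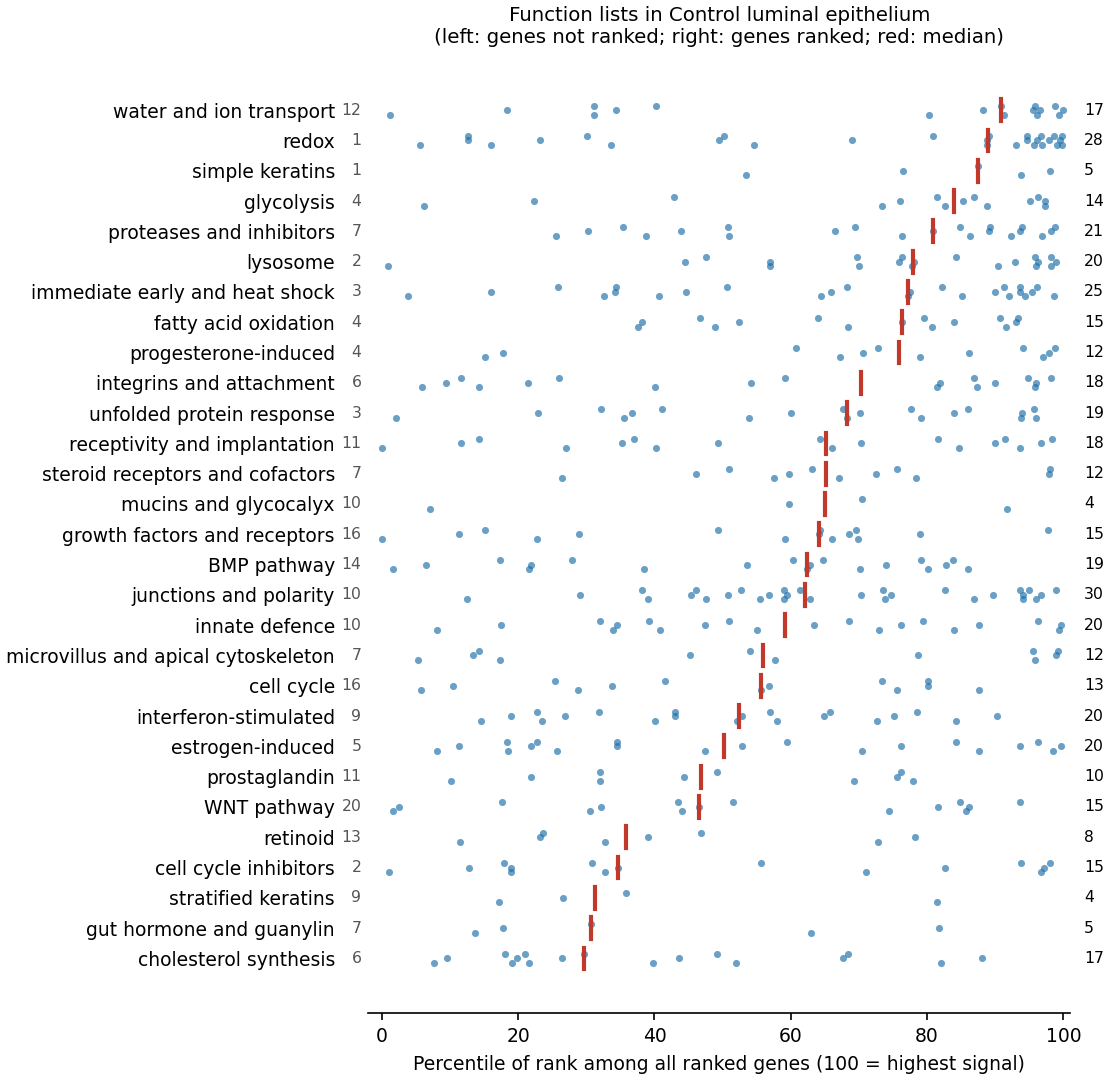
Percentile of rank of each ranked gene (points) in 29 function lists, with the list's median as a red bar and, at the left and right, the numbers of genes not ranked and ranked. Medians run from 90.9 for water and ion transport to 29.7 for cholesterol synthesis, and most lists span nearly the whole range of ranks.

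Of 29 redox genes 28 were above background on all arrays, 13 of them high, with a median percentile of 89. The glutathione transferases Gsto1 (14.74, 14.75 and 14.71) and Gstm2 (14.55, 14.71 and 14.81) led the list, followed by the glutathione peroxidase Gpx1 (14.81, 14.52 and 13.95). Gsto1 was level, Gstm2 was highest on C, and Gpx1 was highest on A. Gpx2, a peroxidase known from the gut, gave 13.70, 12.97 and 11.13 and spanned 5.97-fold, with C lowest. Of energy metabolism, 79 of 91 nuclear genes of ATP synthase and the respiratory chain were above background on all arrays (median percentile 90.6), led by Atp5b (14.49 ± 0.10). Glycolysis genes had a median percentile of 83.9 and fatty acid oxidation genes of 76.4. Slc2a3, a glucose transporter, gave 12.62, 13.05 and 12.72 and Slc2a1 gave 10.32, 10.72 and 10.95. They spanned 1.35-fold and 1.54-fold, and no array was highest for both. Cholesterol synthesis had the lowest median of the function lists at 29.7, with Fdps at 11.32 ± 0.16.

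Of 71 cytosolic ribosomal protein genes 62 were above background on all arrays and 50 were high, with a median SD over arrays of 0.07. Of 49 proteasome genes 43 were above background, with a median percentile of 85.3. Of 22 genes of the lysosome list 20 were above background, while Ctsl was below it. The list was led by the protease cathepsin B (Ctsb, 14.06 ± 0.18), the tetraspanin Cd9 (13.51 ± 0.07) and the membrane protein Lamp2 (13.47 ± 0.29). Cd9 is also on the list of integrins and attachment. The other Ctsb probe averaged only 5.13. Npc1, which exports cholesterol from lysosomes, gave 13.56, 12.70 and 11.83, with A highest. Of the unfolded protein response 19 of 22 genes were above background. Xbp1, its secretory regulator, gave 12.95, 12.22 and 11.45 and was highest on A. The chaperone Hspa5 stood at 5.39 ± 0.15, measured by a single probe, and its relative Hsp90b1 stood at 12.62 ± 0.39. Of proteases and inhibitors, Cstb (13.91 ± 0.10), Serpina1e (13.51 ± 0.32) and Tmprss2 (12.15 ± 0.32) were high.

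Of 21 prostaglandin genes 10 were above background on all arrays (47.6%, beside 46.4% of all named genes). None of the 10 was high, a class that holds 10% of ranked genes by definition. Ptgs1, the constitutive cyclooxygenase, gave 7.87, 7.61 and 8.74, and Ptges3 gave 10.05, 10.12 and 10.30. Ptgs1 was highest on C and Ptges3 was level. Of the receptors, Ptger2 was above background at 10.35 ± 0.71, and Ptger3, Ptger4, Ptgfr and Ptgir were below it on every array. Of retinoid genes, 8 of 21 were above background on all arrays (38.1%, beside 46.4% of all named genes). Rara, Rarb, Aldh1a3, Cyp26b1 and Dhrs9 were below it on each. Stra6, a receptor for retinol-binding protein, gave 5.92, 7.85 and 9.46 and was highest on C. Of guanylin and gut hormone genes, Edn1, endothelin 1, was steady at 10.67, 10.70 and 10.67. Guca2b, uroguanylin, which acts on salt and water transport in the gut, gave 11.86, 8.38 and 7.59 and was high on A, while its receptor Gucy2c was below background with all 3 probes.

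Of 30 innate defence genes 20 were above background on all arrays. Besides Wfdc2, Ltf and Cd14, the calcium binder S100a11 gave 14.48, 14.25 and 14.26, and Lcn2, an iron-scavenging lipocalin, gave 11.54, 10.14 and 8.93. Lcn2 was highest on A and spanned 6.09-fold. S100a8, S100a9, Reg3g, Nos2 and Ccl20 were below background on every array. Of 29 interferon-stimulated genes 20 were above background on all arrays, and they stood on average 0.72 above their own means on A, against -0.22 on B and -0.51 on C. Usp18 gave 10.99, 8.41 and 8.97, Oas2 gave 9.44, 7.74 and 6.23 and Ifit3 gave 8.49, 5.76 and 5.93. Array A was highest for all 3, and Ifit1, Oas3, Ifih1 and Xaf1 were below background on every array.

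Of 29 cell cycle genes 13 were above background on all arrays (44.8%, beside 46.4% of all named genes), at a median percentile of 55.6. None of the 13 was high, a class that holds 10% of ranked genes by definition. The proliferation marker Mki67 (4.52, 5.12 and 5.50) and the mitotic kinase Cdk1 (4.55, 6.03 and 6.55) were above background on B and C only, as were Ccnb1 (4.43, 5.94 and 6.80) and Cdc20 (5.08, 7.29 and 7.83). Ccna2, Ccnb2, Bub1 and Rrm2 were below background on every array, and Ccnd1, an early cyclin, gave 7.71, 9.54 and 9.32. Of 17 inhibitors of division 15 were above background on all arrays (88.2%, beside 46.4% of all named genes), at a median percentile of 34.7. Medians cover ranked genes only, a much smaller share of the cell cycle list (44.8%), so the medians of these lists are not compared. Cdkn1c, the inhibitor p57, gave 13.71, 13.36 and 13.15, Gadd45g gave 12.47, 13.32 and 12.98 and Btg1 gave 13.13, 13.24 and 12.79, all 3 in the high range. Cdkn1a stood at 6.42 ± 0.68 and Cdkn1b at 6.01 ± 0.30, and Btg2 was below background on every array. Of 28 immediate early and heat shock genes, which can rise while tissue is handled, 25 were above background on all arrays. Egr1 gave 12.52, 12.76 and 13.00, Fos gave 11.87, 12.26 and 12.33 and Zfp36 gave 12.50, 12.55 and 12.60. Egr1 spanned 1.39-fold, Fos 1.37-fold and Zfp36 1.07-fold, and Nr4a1, Myc and Ier2 were below background.

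Of 446 transcription factors taken by family name 200 were above background on all arrays (44.8%, beside 46.4% of all named genes) and 23 were high. After Ybx1 and Msx1 the highest were Cited4 (13.90, 13.60 and 13.22), a coactivator, and Tfcp2l1 (13.88, 13.55 and 13.20), a factor known from kidney and other duct epithelia. Both were highest on A and lowest on C. Hopx gave 13.18, 12.52 and 12.83 and Hoxb7 gave 12.74, 12.73 and 12.63. Of 39 Hox genes 9 were above background on all arrays (23.1%, beside 46.4% of all named genes). They were led by Hoxb7, Hoxb5 (10.76 ± 0.37) and Hoxb6 (10.55 ± 0.51) of the B cluster. Of 17 Kruppel-like factors 8 were above background on all arrays (47.1%), and only Klf5 was high. Of zinc finger genes named Zfp 187 of 359 were above background on all arrays (52.1%, beside 46.4% of all named genes), at a median percentile of 30.8.

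The genes named on either side of the detection threshold were all dim, and those inside it were somewhat brighter. Ctsw and Eif3j1, the named genes just inside it, had a highest detection p-value of 0.04915 over the arrays (mean signals 5.74 and 5.44). Cacnb2 and Cbfa2t2, just outside, had 0.05021 (mean signals 5.15 and 5.33).

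Spread over the arrays was small for most genes. The median SD of all ranked genes was 0.207 on the log2 scale, 0.14 in high genes, 0.22 in middle genes and 0.20 in low genes. The median standard error over beads, the within-array error, was 0.065. The background offset makes differences between dim signals smaller than they are, so SDs of low genes are understated. Among the 500 highest genes those with the smallest SDs were ribosomal proteins and a few others, such as Ppia (14.21, 14.19 and 14.19), a peptidyl-prolyl isomerase, and Rab25 (12.87, 12.89 and 12.90), an epithelial vesicle GTPase.

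A range over 4-fold was found in 255 ranked genes (2.45%), 10 of them high. Without array A 77 genes had such a range, without C 78 and without B 231. In 202 of the 255 genes (79.2%) B lay between the others, against 46.0% of all ranked genes, so most of these spans were differences between A and C. Array A was highest and C lowest in 119 of them, and the reverse in 83. Counting genes over 2-fold above or below both other arrays gave 279 for A, 41 for B and 355 for C.

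Slc51a, a subunit of the organic solute transporter for bile acids and steroids, had the largest SD among the 5206 genes of higher rank, 2.99, from 7.01, 10.41 and 12.98. Serpine2, a protease inhibitor, gave 9.81, 11.96 and 13.22, and Pga5, a pepsinogen gene, gave 7.86, 9.85 and 12.22. These 3 genes, like Sgk1 and Id1, were lowest on A and highest on C. Alox15, a lipoxygenase known from this epithelium under progesterone, gave 11.86, 10.49 and 7.36, and Tgfbi, a matrix protein, gave 11.86, 9.63 and 7.95. Timp1, a metalloprotease inhibitor, gave 9.89, 9.37 and 6.18, and Gbp2b, an interferon-induced GTPase, gave 11.35, 7.67 and 7.05. In each of these 4 genes A was highest and C lowest. Departures of B alone were smaller and rarer; Sprr2f and Ckmt1, a mitochondrial creatine kinase (10.13, 12.30 and 11.37), were highest on B. The erythroid sums given above were also highest on A and lowest on C, as were the summed linear signals of the whole glandular list, 9606, 4603 and 3342. Ranked luminal markers stood on average 0.36 above their means on A, 0.14 above on B and at -0.51 on C, and ranked glandular markers 0.22 above on A, 0.54 above on B and at -0.77 on C. On all arrays 5 of 14 glandular and 5 of 8 erythroid genes were above background, and their part in the spread was not tested.

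**Figure D5:**
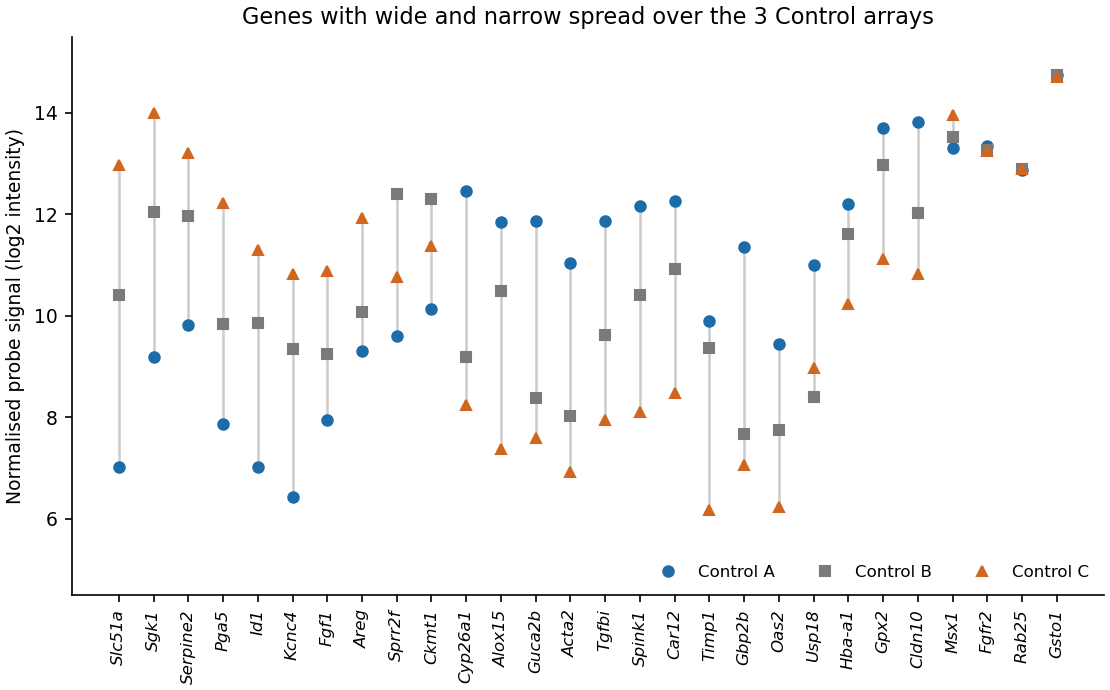
Normalised log2 signal of 28 genes on Control arrays A (circles), B (squares) and C (triangles), with a grey line from the lowest to the highest array. Genes at the left, such as Slc51a, are lowest on A and highest on C, genes in the middle, such as Cyp26a1, are highest on A, and the 4 genes at the right, from Msx1 to Gsto1, span at most 1.57-fold.

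Promoters of the variable genes were less CpG-rich than those of steady genes at similar rank. Among the 5206 genes of higher rank, the median ratio of observed to expected CpG was 0.66 in 56 genes with a range over 4-fold and 0.81 in 2983 genes with a smaller range. A ratio over 0.6 was found in 51.8% and 82.3% of them. The windows of Guca2b and Slc51a, with 0 and 1 CG dinucleotides in the bases shown, belong to the first set. These shares were not tested either.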

How the data were processed

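Total RNA was measured on 1-colour Illumina bead chips, and the labels name 3 Control and 3 Alk3 conditional knockout arrays. Per the file headers, each deposited table gives, per probe, the intensity averaged over beads, its standard error, the number of beads and a detection p-value; the software is not named in the sources used here. Intensities of the 3 Control arrays were background-corrected by neqc in limma 3.58.1 (a normexp fit whose negative-control levels are estimated from detection p-values, offset 16), quantile-normalised together and put on the log2 scale. The offset shrinks differences between dim probes. The authors' deposited processed intensities, a linear scale with values below 0, served as an alternative.

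Probes were named through RefSeq by accession (29370), symbol (3686) or synonym (3267), and 8958 kept the name in the files. A gene took its brightest probe above background on all 3 arrays. Percentiles of rank run to 100 at the highest signal. No test was made, since there is a single group. Summed signals of a list are linear, taken over each member's brightest probe. The ranking steps were run on simulated data whose true signals were the mean signals of these arrays. Each probe stood there as its own gene, so the choice of the brightest probe and differences between probes were not checked. Python 3.11.15, pandas 2.3.3 and matplotlib 3.10.9 were used.

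The members and lists were chosen with earlier results of these data known. Genes named were any list member, the 60 highest ranks, the 5 highest of each family and 30 highest transcription factors, the 30 largest SDs among genes of higher rank, the 15 smallest SDs among the 500 highest, the 8 largest departures of each array in each direction, the 5 largest probe disagreements and the 2 genes nearest the detection threshold on each side; clone names were counted and skipped. The knockout arrays entered no value except in an alternative that normalised all 6 arrays together. A few list members are not reported here.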

Additional observations from a re-analysis of the deposited data

How the results depend on the processing

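The share of summed signal in the 100 highest genes (17.2%) was 17.0% with normexp without negative controls and an offset of 50, 16.3% with no background correction, 17.5% with the authors' deposited values and with all 6 arrays normalised together, 20.4% with the mean of a gene's probes, 17.0% with symbols as in the files, and 16.9% to 17.3% when each array was left out. The median SD (0.207) was 0.161 with the offset of 50, 0.156 with no background correction, and 0.151 to 0.199 when each array was left out. The count of genes with a range over 4-fold (255) was 150 with the offset of 50, 139 with no background correction, 384 among genes above background on at least 1 array, and 77 to 231 when each array was left out. Leaving out A or C lowered it most (77 and 78). The counts above background on all arrays (10412) and on none (15689) stayed within 1.5 times under every alternative run on them, from 9345 to 13202 and from 15689 to 17821, and the causes of these shifts were not tested. Of 32 genes named here with a range over 4-fold, all 32 kept the same highest and lowest array with the offset of 50, no background correction, median scaling, the deposited values and all 6 arrays together, and the interferon-stimulated list stayed highest on A in each (0.59 to 0.77). Percentiles of the 195 ranked genes named moved by at most 4.24 points under these settings. They moved by up to 8.93 points with detection under 0.01 (Cdhr5), 18.3 with detection on at least 1 array (Bmp5; 47 genes by over 10), 33.0 with the mean of the probes (Cdh1; 27 genes by over 10), 18.0 without A (Gbp2b), 9.88 without B (Cyp2j11) and 19.1 without C (Slc51a). With symbols as in the files Ybx1 moved by 94.2 points. No paired analysis was possible because a single group was described. Signal over background limits the low genes, where 3 arrays cannot separate absence from a dim probe.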

Other observations

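Families outside the report's lists ran from mostly detected to mostly undetected, beside 46.4% of all named genes above background on all arrays. Of 79 histone genes 54 were above background on all arrays, led by the linker histone H1f2 (13.49, 13.38 and 13.02) and the replacement histone H3f3b (13.05, 13.35 and 13.42). Of 74 Rab GTPases 53 were above background, led by Rab11b of recycling endosomes (13.12, 13.28 and 13.17). Of 12 annexins, which bind membranes in the presence of calcium, 7 were above background, and Anxa2 gave 12.89, 12.97 and 12.99. Of 34 chemokines 9 were above background. Cxcl17, a chemokine of mucosal surfaces, stood at 11.84 ± 0.96 (SD, n = 3) and was highest on A, with a span of 3.74-fold. Of 33 interleukins 6 were above background, with Il18 at 8.73, 8.92 and 7.79 and Il16 at 8.53, 8.45 and 10.03. Of 44 collagens 9 were above background on all arrays and none was high, with Col9a2 at 9.51, 9.10 and 9.41 and Col6a1 at 6.91, 7.21 and 8.01. Of 82 cytochromes P450 12 were above background, and Cyp2j11 gave 5.84, 6.32 and 10.17, with C highest. Of 66 protocadherins 4 were above background, led by Pcdh1 (9.14, 8.55 and 7.71). Among genes of adhesion, Lgals3, galectin 3, gave 13.23, 12.74 and 12.05 and Itgb4, the integrin of hemidesmosomes, gave 12.10, 11.80 and 10.74, both lowest on C. All values are log2 signals on arrays A, B and C in that order.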
